A study of Mus musculus with 3 samples.

Results

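Integrins are transmembrane receptors built from an α and a β chain that couple a cell to matrix, to other cells and, inside, to the actin cytoskeleton. The 10 genes described here encode the chains that T cells are best known to use. They are *Itgae* (αE, CD103), *Itga4* (α4, CD49d), *Itgal* (αL, CD11a), *Itgav* (αV), *Itga6* (α6), *Itgb7* (β7), *Itgb1* (β1), *Itgb2* (β2), *Itgb8* (β8) and *Itgb3* (β3). They were taken by symbol and make up 10 of the 25759 genes in each expression table. All 10 had an RPKM, exon reads per exon length and library size, above 5 in at least 1 library, a level that 7017 genes reached and that defines an expressed gene below.

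The libraries are from T follicular regulatory (TFR) cells, Foxp3+ regulatory T cells that enter B-cell follicles and restrain germinal centres, and the study asked how NFATc1, in particular its short isoform αA, and the repressor Blimp-1 (encoded by *Prdm1*) shape these cells. Mice on a C57BL/6J background received 125 µg NP-KLH in alum intraperitoneally and a boost on day 7. On day 10, B220-CD4+BlimpGFP+CXCR5+GITRhi cells were sorted from spleen and mesenteric lymph nodes and sequenced as 3 poly(A) libraries, 1 per genotype. The library N came from Nfatc1fl/fl.Prdm1gfp/+.FIC mice and is labelled NFATc1-deficient, αA came from Nfatc1caaA.Prdm1gfp/+.FIC mice and is labelled as overexpressing NFATc1/αA, and PαA came from Nfatc1caaA.Prdm1gfp/fl.FIC mice and is labelled as lacking Blimp-1 in addition. All 3 genotypes carried FIC, a Cre recombinase expressed from the *Foxp3* locus and so acting mainly in regulatory T cells but, by the study's reporter data, also in some conventional CD4+ T cells, and 1 *Prdm1* allele with GFP. None of the 3 libraries is from mice without a genetic change in NFATc1, and neither the age of the mice nor the number pooled per library is given in the sources used here.

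With 1 library per genotype no difference could be tested against the spread between mice. Ratios below therefore compare 3 libraries, not 3 genotypes, and each comes with a 95% interval of the read counts that covers counting error only. PCR copies were not marked with molecular identifiers and count as separate reads, so the intervals can be too narrow even for counting error. The RPKM values rest on totals of 29726219 (N), 27239921 (αA) and 25465829 (PαA) reads. Ribosomal protein genes took 12.6%, 14.2% and 18.2% of the exon reads, and the part of this difference in composition in the integrin values was not tested. A ratio above 2 in either direction between expressed genes is called a 2-fold difference.

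The targeted genes were read first. For *Nfatc1* the library labelled N gave 63.6 RPKM, that labelled αA 62.9 and that labelled PαA 32.4, from 14053, 12737 and 6124 exon reads. These values go against the labels: the library labelled NFATc1-deficient was not below the others, and neither library labelled as overexpressing was above it. The tables give no reads per exon, so the deleted part of *Nfatc1* could not be examined apart from the rest of the gene. *Prdm1* had 25.6, 24.9 and 10.0 RPKM and was lowest in PαA, 2-fold lower than in the other libraries. N, αA and PαA stand for the labels throughout. The markers of the sorted population were present in every library. *Cd4* had 488, 396 and 341 RPKM in N, αA and PαA, *Cxcr5* 48.3, 81.3 and 47.6, *Tnfrsf18* (GITR) 303, 217 and 145, and *Foxp3* 32.7, 20.9 and 15.3. Of the 11 marker genes of these cells all 11 were expressed and 5 (45.5%) were 2-fold lower in PαA than in N, against 7.77% of all expressed genes, *Foxp3* and *Tnfrsf18* among them, with *Ctla4*, *Pdcd1* and *Prdm1*. After TMM scaling 2 of the 11 were, where 7.34% of all expressed genes differed 2-fold, 251 of these 509 genes being lower. Fewer cells of a type and less RNA per cell cannot be told apart in such bulk libraries.

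αEβ7 binds E-cadherin on epithelium and is a mark of effector regulatory T cells and of T cells that reside in tissue. α4 pairs with β7 to bind MAdCAM-1 in gut venules and with β1 to bind VCAM-1 and fibronectin, whereas αLβ2 (LFA-1) binds ICAMs and stabilises contacts with antigen-presenting cells and B cells. αVβ8 frees active TGF-β from its latent complex, αVβ3 binds matrix proteins with an RGD motif, and α6β1 binds laminin. Because β chains are shared, the amount of α chain can decide which dimers a cell displays.

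RefSeq promoter windows (GRCm38.p6, 250 bases before to 50 after the annotated start) were found for 5 of the 10 genes, *Itga4*, *Itgav*, *Itgb1*, *Itgb7* and *Itgb8*. Those of the chains of α4β1 and αVβ8 follow, since *Itga4*, *Itgav* and *Itgb8* were each 2-fold lower in PαA than in N by RPKM while *Itgb1* was not. Capitals mark the core bound by NFAT, GGAAA or its reverse complement TTTCC, and the core within Blimp-1 sites, GAAAG or CTTTC, which overlap in GGAAAG.

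Itga4, chr2:79255176-79255475, plus strand: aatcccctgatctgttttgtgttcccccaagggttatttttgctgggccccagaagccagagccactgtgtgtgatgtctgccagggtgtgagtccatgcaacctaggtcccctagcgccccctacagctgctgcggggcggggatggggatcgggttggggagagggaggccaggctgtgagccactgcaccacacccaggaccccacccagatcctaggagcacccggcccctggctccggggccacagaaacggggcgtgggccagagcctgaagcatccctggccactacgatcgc

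Itgb1, chr8:128685404-128685703, plus strand: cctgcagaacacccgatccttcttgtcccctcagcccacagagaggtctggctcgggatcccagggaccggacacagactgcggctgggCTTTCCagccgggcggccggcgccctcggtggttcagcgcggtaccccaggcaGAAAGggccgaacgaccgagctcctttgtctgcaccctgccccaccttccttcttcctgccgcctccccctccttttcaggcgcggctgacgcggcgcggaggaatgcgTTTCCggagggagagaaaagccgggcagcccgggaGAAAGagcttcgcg

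Itgav, chr2:83724147-83724446, plus strand: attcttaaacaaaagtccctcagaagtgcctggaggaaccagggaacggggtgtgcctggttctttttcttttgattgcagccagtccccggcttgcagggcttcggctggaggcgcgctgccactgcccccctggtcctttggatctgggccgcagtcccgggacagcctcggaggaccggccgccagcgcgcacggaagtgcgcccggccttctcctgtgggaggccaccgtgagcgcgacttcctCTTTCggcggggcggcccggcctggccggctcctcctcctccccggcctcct

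Itgb8, chr12:119238227-119238526, minus strand: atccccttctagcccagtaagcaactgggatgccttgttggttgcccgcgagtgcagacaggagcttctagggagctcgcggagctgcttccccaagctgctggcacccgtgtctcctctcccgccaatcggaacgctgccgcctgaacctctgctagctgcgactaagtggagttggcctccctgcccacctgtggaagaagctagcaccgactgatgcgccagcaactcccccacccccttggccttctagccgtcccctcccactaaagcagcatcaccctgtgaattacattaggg

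The *Itgb1* window held 2 NFAT cores and 3 Blimp-1 cores. The *Itgav* window held no NFAT core and 1 Blimp-1 core, at the start site, and the *Itga4* and *Itgb8* windows held neither. The start used for *Itgb8* lies 526 bases inside the gene as counted, so that the sequence before the gene's outer start was not searched, whereas the other 4 starts coincide with those of the counted genes. Such short letters are common: over all 32851 windows of this length, 61.3% held GGAAA and 57.3% held GAAAG on either strand. The RUNX word TGTGGT, searched on both strands, was found in *Itga4* and in 16.8% of all windows. The SMAD word CAGACA was found the same way in *Itga4*, *Itgb1* and *Itgb8* and in 21.0% of all windows. A match describes these letters only and is not a binding site.

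*Itgb7*, *Itgb2*, *Itgal* and *Itgb1* stood at 155 RPKM or more in every library and the other 6 genes at 63.3 or less. In N the order was *Itgb7*, *Itgb2*, *Itgal*, *Itgb1*, *Itgae*, *Itga4*, *Itgav*, *Itgb3*, *Itgb8* and *Itga6*, from 418 to 6.65 RPKM, and no neighbours in that order had overlapping counting intervals. *Itgb7* led in every library, with 31.2%, 33.9% and 41.7% of the summed RPKM of the 10 genes in N, αA and PαA. *Itgal* and *Itgb2* had overlapping intervals in αA, as did *Itgav* and *Itga6* in αA and in PαA, and *Itgb3* and *Itgae* in PαA. *Itgb1* ranked 4th in N and αA and 2nd in PαA, *Itgae* went from 5th in N to 6th in αA and 7th in PαA, and *Itgb8* was 9th in N and last in αA and PαA. The summed RPKM of the 10 genes was 1338 in N, 1099.9 in αA and 1165 in PαA. With TMM factors the sums were 1223, 1124 and 1248, so that PαA rather than N was highest.

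**Figure D1:**
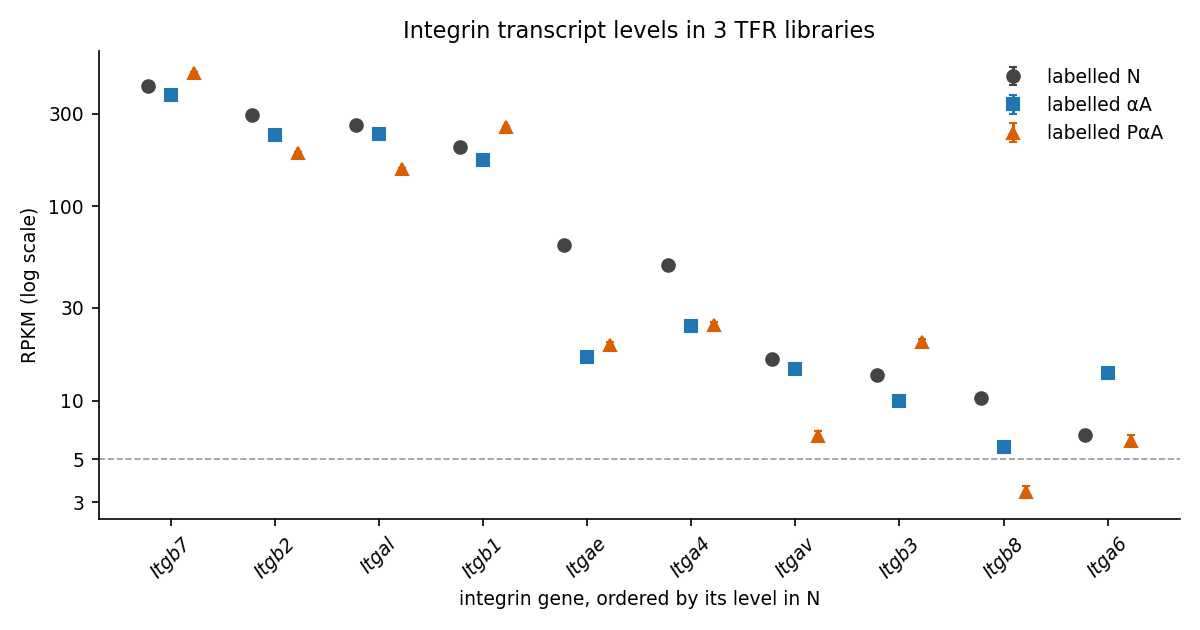
Level of the 10 integrin genes (RPKM, logarithmic axis) in the libraries labelled N (circles), αA (squares) and PαA (triangles), 1 library each, with 95% counting intervals and a dashed line at an RPKM of 5. The 4 genes at the left lie at 155 RPKM or more in every library, and *Itgae* and *Itga4* are high in N alone.

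Between αA and N, 3 of the 10 genes differed 2-fold (30%), *Itgae* and *Itga4* lower and *Itga6* higher in αA. Of the 7017 expressed genes 4.25% did so, 2.81% lower and 1.44% higher. Between PαA and αA 3 of the 10 differed as well, *Itgav* and *Itga6* lower and *Itgb3* higher in PαA, against 4.63% of expressed genes, 2.45% lower and 2.18% higher. Between PαA and N 4 of the 10 differed, *Itgae*, *Itga4*, *Itgav* and *Itgb8*, all lower in PαA, against 10.3% of expressed genes, 7.77% lower and 2.57% higher. These comparisons share libraries and are not independent of each other. Over all expressed genes the median log2 ratio was -0.14 for αA against N, -0.06 for PαA against αA and -0.19 for PαA against N, and over the 10 integrin genes it was -0.29, -0.14 and -0.70. TMM factors, which centre the bulk of genes, raised every log2 ratio by 0.16, 0.07 and 0.23 in these comparisons. *Itga4* then was no longer 2-fold lower in αA or in PαA than in N. The direction of the called genes as a whole depended on scaling. For αA against N 101 expressed genes were 2-fold higher and 197 lower by RPKM, but 134 and 112 with TMM factors and 135 and 111 with size factors. For PαA against N these numbers were 180 and 545 by RPKM, 258 and 251 with TMM, 270 and 240 with size factors and 136 and 881 by TPM. For PαA against αA they were 153 and 172 by RPKM, 174 and 129 with size factors and 120 and 263 by TPM.

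**Figure D2:**
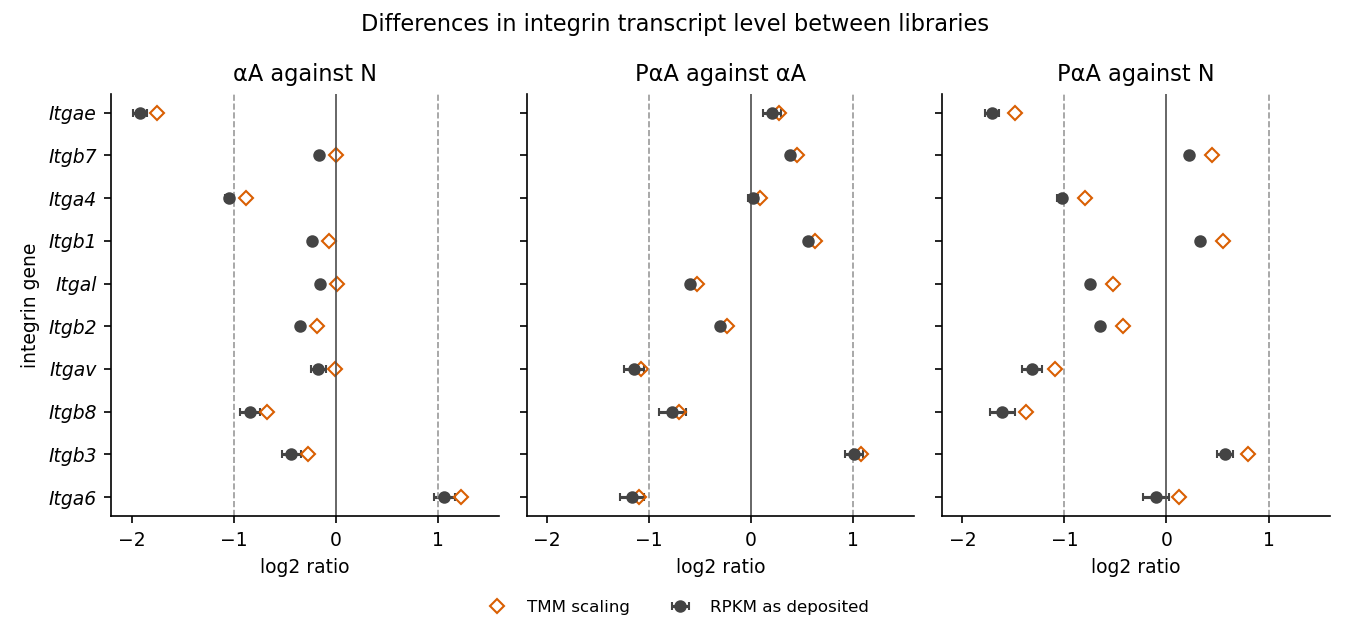
Log2 ratio of each integrin gene in the 3 comparisons, from RPKM as deposited (filled circles with 95% counting intervals) and after TMM scaling (open diamonds), with dashed lines at a 2-fold difference. *Itgae* lies far to the left against N in both αA and PαA, and TMM moves *Itga4* inside the 2-fold line.

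*Itgae* (ENSMUSG00000005947, chr11:73090583-73147446, plus strand of GRCm38, 32 exons) showed the largest difference of the 10. N gave 8621 exon reads, αA 2095 and PαA 2253, that is 63.3, 16.8 and 19.3 RPKM. Only N was high. αA lay 3.77-fold below N, a log2 ratio of -1.91 (-1.98 to -1.85), which was the 40th lowest of 7017 expressed genes, and PαA lay 3.28-fold below N, at -1.71 (-1.78 to -1.65). PαA was slightly above αA, by 0.20 (0.12 to 0.29). With TMM factors the ratios to N were -1.75 and -1.48. All *Itgae* exon reads mapped uniquely. A gene on the opposite strand, *Haspin*, lies within *Itgae*, and without strand information its reads could not be separated, but it was given only 179, 149 and 137 exon reads, none unique.

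*Itgb7* (chr15:102215995-102231935), the chain that αE and α4 share, was the most abundant integrin transcript and did not follow *Itgae*. Its RPKM was 418 in N, 373 in αA and 486 in PαA. PαA was highest, with a log2 ratio of 0.38 (0.36 to 0.40) against αA and 0.22 (0.20 to 0.24) against N. The lower level in αA than in N, -0.16, was close to the shift of the median gene and came to 0.01 with size factors.

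*Itga4* (chr2:79255426-79333123) had 14569, 6475 and 6129 exon reads and an RPKM of 50.2 in N, 24.3 in αA and 24.6 in PαA. As with *Itgae*, N stood above αA and PαA, which could not be told apart at this depth: their log2 ratio was 0.02 (-0.03 to 0.07). αA lay 2.06-fold below N, a log2 ratio of -1.04 (-1.09 to -1.002), and PαA 2.04-fold below, at -1.03 (-1.07 to -0.98). TMM factors gave -0.88 and -0.80, under the 2-fold line. Only 69.4%, 66.6% and 64.1% of *Itga4* exon reads mapped uniquely. Unique reads alone gave -1.10 and -1.14, so the difference was as large without the multiply mapped reads. *Cerkl* overlaps the end of *Itga4* by 2581 bases on the other strand and had 71, 36 and 4 exon reads.

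*Itgb1* (chr8:128685654-128733200), which completes α4β1, α6β1 and αVβ1, had an RPKM of 203 in N, 173 in αA and 255 in PαA. It was highest in PαA, like *Itgb7*, with log2 ratios of 0.56 (0.53 to 0.59) against αA and 0.33 (0.30 to 0.35) against N. The opposite pattern was seen for LFA-1. *Itgal* (chr7:127296260-127335138) had 262, 236 and 155 RPKM and was lowest in PαA, by -0.60 (-0.62 to -0.58) against αA and -0.75 (-0.77 to -0.73) against N. *Itgb2* (chr10:77530252-77565708) had 296, 233 and 188 RPKM, with log2 ratios of -0.35 (-0.37 to -0.32) for αA against N, -0.31 (-0.34 to -0.28) for PαA against αA and -0.65 (-0.68 to -0.62) for PαA against N. Both LFA-1 chains were thus lower in PαA than in N under every scaling tried, but by less than 2-fold. For *Itgal* the αA library did not differ from N beyond scaling, with -0.15 by RPKM and 0.01 by TMM.

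*Itgav* (chr2:83724397-83806916), the α chain of the TGF-β-activating integrin, had 16.4 RPKM in N, 14.6 in αA and 6.59 in PαA. Here PαA alone was low, 2.21-fold below αA at a log2 ratio of -1.15 (-1.25 to -1.05) and 2.49-fold below N at -1.32 (-1.41 to -1.22). The junction reads of *Itgav* gave log2 ratios of -0.84 and -0.79, under 2-fold in both. Its partner *Itgb8* (chr12:119158022-119238802) was lower in αA than in N and lower again in PαA, with 10.4, 5.80 and 3.40 RPKM from 2587, 1327 and 727 reads. It was 3.05-fold lower in PαA than in N, a log2 ratio of -1.61 (-1.73 to -1.49), with -0.84 (-0.93 to -0.74) for αA against N and -0.77 (-0.90 to -0.64) for PαA against αA. *Itgb8* was the only one of the 10 below an RPKM of 5 in a library, and this was PαA.

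*Itgb3* (chr11:104608000-104670476), a second partner of αV, differed in the other direction. It had 13.5, 10.0 and 20.1 RPKM, with PαA 2.01-fold above αA, a log2 ratio of 1.01 (0.92 to 1.10) whose interval spans the 2-fold line, and 0.57 (0.49 to 0.65) above N. TPM values placed it under 2-fold, at 0.84. *Itga6* (chr2:71745616-71858416), the laminin receptor chain, peaked in αA. It had 1117, 2141 and 891 exon reads and 6.65, 13.9 and 6.19 RPKM. αA was 2.09-fold above N, at 1.06 (0.96 to 1.17), and PαA 2.25-fold below αA, at -1.17 (-1.28 to -1.05), although its junction reads gave -0.91 (-1.10 to -0.72), under 2-fold. PαA and N were not distinguishable, at -0.10 (-0.23 to 0.03), and TMM turned the sign to 0.13.

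**Figure D3:**
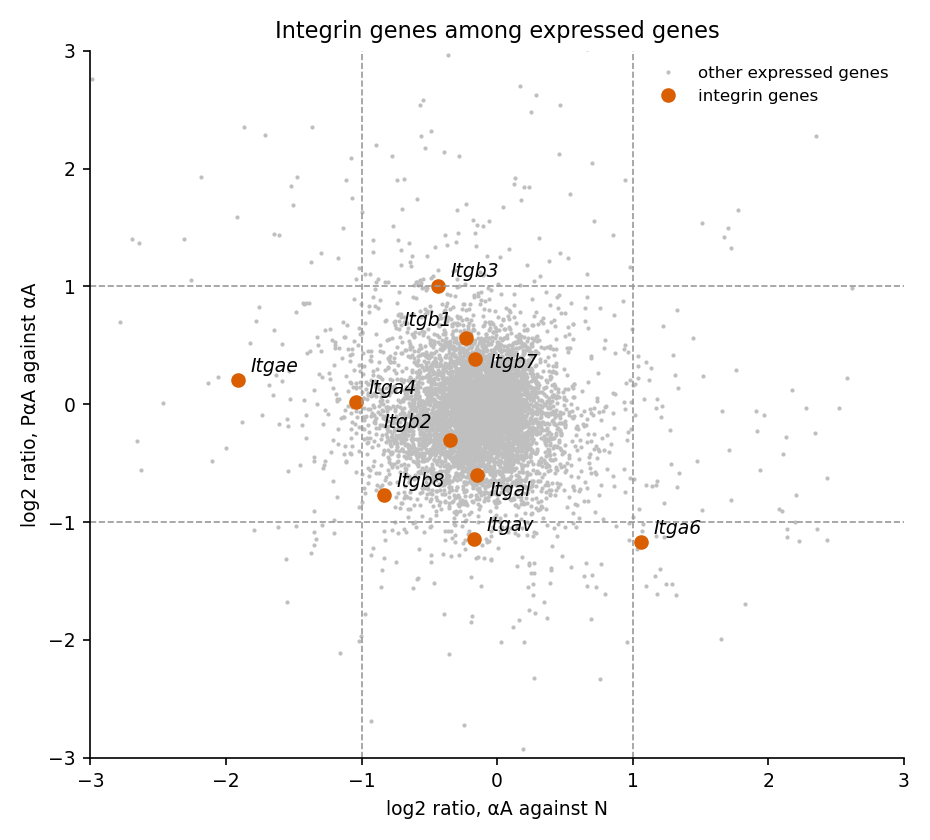
Log2 ratio of αA against N (horizontal) and of PαA against αA (vertical) for expressed genes, grey points, and for the 10 integrin genes, orange points, with dashed lines at a 2-fold difference. *Itgae* and *Itga4* lie to the left near 0 on the vertical axis, *Itgav* low, *Itgb3* high and *Itga6* at the lower right. Of the 7017 genes 21 without a finite ratio and 28 beyond the axes are not drawn, and αA enters both axes.

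Among 6320 expressed genes with at least 500 exon reads in their highest library, the 5 whose pair of log2 ratios lay nearest to that of *Itgae* were *C3*, *Ell2*, *Cnbd2*, *Camk2n1* and *Arc*, at distances of 0.22 to 0.33 in the plane of αA against N and PαA against αA. *C3*, complement component C3, was the closest, with 16.1, 3.69 and 4.18 RPKM in N, αA and PαA. *Ell2*, an elongation factor of RNA polymerase II, had 8.32, 2.59 and 2.89. *Cnbd2* is uncertain because only 5.01% of its exon reads were unique. These are likenesses over 3 libraries.

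Since an integrin needs both chains, the RPKM ratio of α to β was taken for 8 dimers. αE amounted to 0.152 of β7 in N, 0.0450 in αA and 0.0397 in PαA, so that β7 exceeded αE 6.60-fold in N and 22.2-fold and 25.2-fold in the others. α4 was 0.120 of β7 in N, 0.0652 in αA and 0.0507 in PαA, and 0.247, 0.141 and 0.0967 of β1. With unique reads alone these were 0.0833, 0.0435 and 0.0325 of β7 and 0.172, 0.0937 and 0.0620 of β1, in the same order. For αE and α4 the ratio was thus highest in N and lowest in PαA against each β chain. αL and β2 stayed close to equal, at 0.885, 1.01 and 0.826. This was the most balanced dimer in every library.

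αV exceeded β8 in every library, 1.59-fold, 2.51-fold and 1.94-fold. Against β3 it went from 1.21-fold in N and 1.46-fold in αA to 0.328 in PαA, so αV was the more abundant chain in N and αA and β3 in PαA. Relative to β1, αV was 0.0810 in N and 0.0843 in αA, with overlapping intervals, and 0.0258 in PαA. α6 was 0.0328, 0.0804 and 0.0243 of β1. A ratio within a library does not depend on the scaling between libraries. It compares transcripts, not surface protein.

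**Figure D4:**
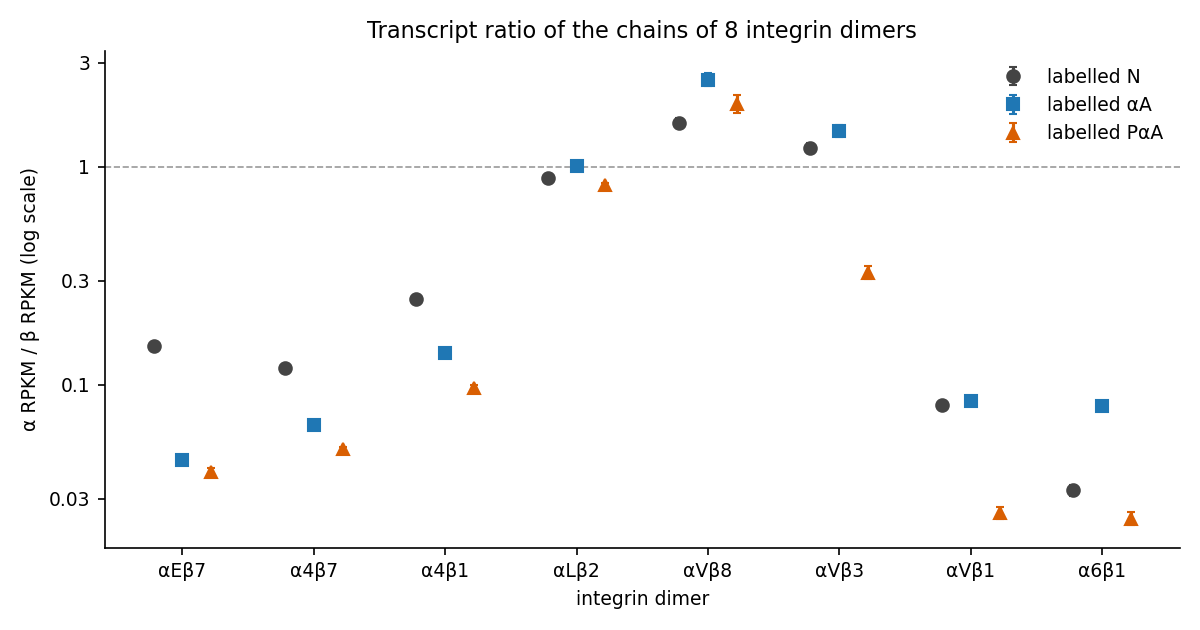
RPKM of the α chain divided by that of the β chain (logarithmic axis, dashed line at 1) for 8 integrin dimers in the libraries labelled N (circles), αA (squares) and PαA (triangles), with 95% counting intervals. αEβ7, α4β7 and α4β1 step down from N to PαA, αLβ2 stays near 1, and αVβ3 crosses 1 in PαA.

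Reads over exon-exon junctions and in introns gave a second look at the same genes. For *Itgae*, junction reads numbered 3953, 961 and 1075 and had log2 ratios to N of -1.91 (-2.02 to -1.81) in αA and -1.66 (-1.75 to -1.56) in PαA, as the exon reads did. Its intron reads, 145, 81 and 67, had smaller ratios, -0.71 (-1.12 to -0.31) and -0.89 (-1.33 to -0.46). The gaps between intron and exon ratio were exceeded by 13.3% of 1914 and 32.8% of 1673 genes. The median intron ratio of genes with at least 50 intron reads was 0.21 for αA against N and 0.12 for PαA against N, and the share of introns in the libraries N, αA and PαA was 2.89%, 4.25% and 3.11%. In *Itga4* the ratios to N were larger in junction reads than in exon reads, -1.34 (-1.45 to -1.22) in αA and -1.28 (-1.40 to -1.16) in PαA.

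*Itgav* behaved differently by class of read. Its exon reads were 2.49-fold lower in PαA than in N, but its junction reads, 772, 730 and 382, had a ratio of -0.79 (-0.97 to -0.61), and its intron reads, 188, 284 and 194, one of 0.27 (-0.03 to 0.57). Of *Itgav* exon reads 22.4% spanned a junction in N, 26.1% in αA and 32.3% in PαA. The gap between junction and exon ratio, 0.53, was exceeded by 3.69% of 5988 genes. *Itga6* showed a gap of 0.46, which 5.41% of genes exceeded, and its junction reads placed PαA above N, by 0.35 (0.13 to 0.58), where exon reads placed it level. The 2-fold lower *Itgav* level in PαA thus held for exon reads and not for junction reads.

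The intron reads of *Itgb8* numbered 92, 162 and 20. Introns therefore went up from N to αA, by 0.94 (0.56 to 1.33), while exons went down, a gap that 2.77% of 1914 genes exceeded, and both were lowest in PαA. Its junction reads were few, 222, 150 and 71. *Itgb3* had a junction ratio for PαA against αA of 0.93 (0.68 to 1.17). Its few intron reads, 37, 22 and 8, went the opposite way, with -1.36 (-2.74 to -0.14) for PαA against αA and -1.99 (-3.30 to -0.86) for PαA against N. In *Itgb1*, *Itgb7*, *Itgal* and *Itgb2* junction and exon ratios differed by at most 0.09 in every comparison. Introns of these genes followed the exons in part. *Itgb1* intron reads, 357, 370 and 667, and those of *Itgb7*, 289, 224 and 351, were highest in PαA, as were their exon levels. *Itgal* intron reads, 263, 303 and 251, gave 0.33 (0.09 to 0.57) for αA against N and 0.16 (-0.10 to 0.41) for PαA against N, where exons gave -0.15 and -0.75. Gaps of this kind were common, since 47.8% of 1914 and 28.1% of 1673 genes exceeded those of *Itgal*. For *Itgb2*, with 110, 57 and 61 intron reads, PαA against αA was 0.20 (-0.35 to 0.74) in introns and -0.31 in exons, a gap that 19.8% of 1770 genes exceeded.

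**Figure D5:**
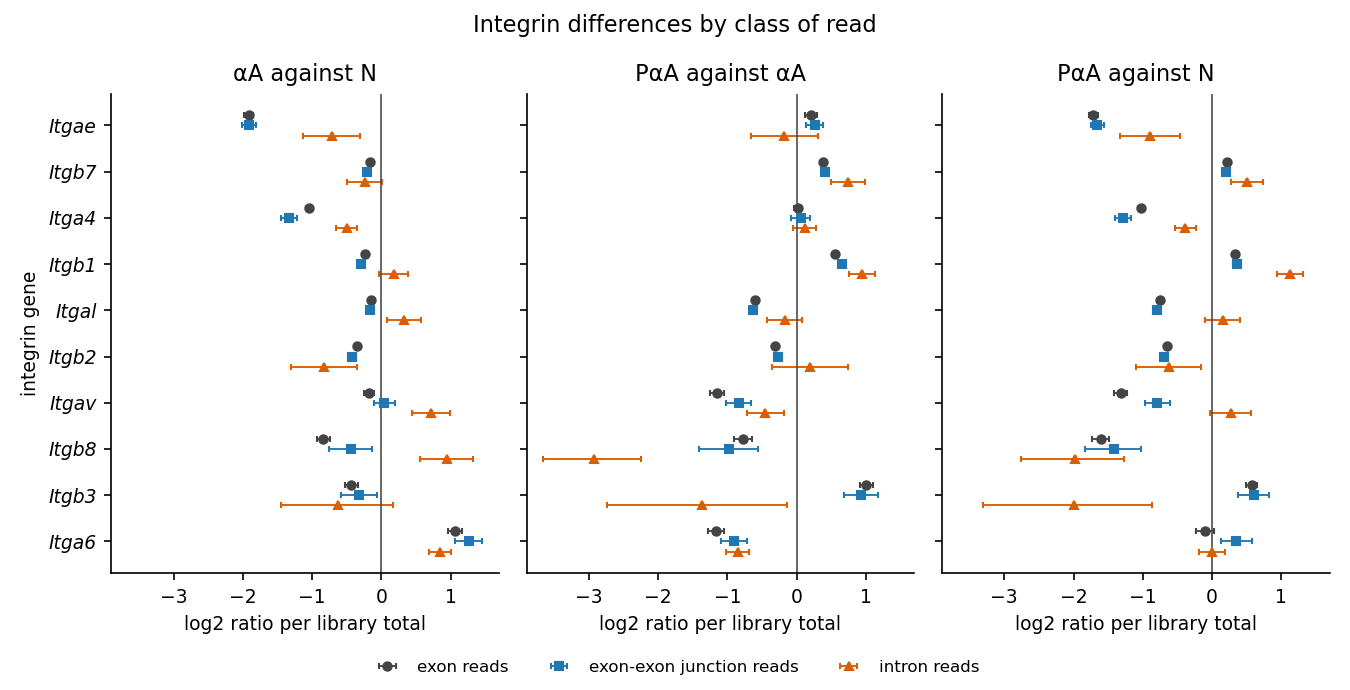
Log2 ratio of each integrin gene, per library total, from exon reads (circles), exon-exon junction reads (squares) and intron reads (triangles), with 95% counting intervals, in the 3 comparisons. The classes nearly coincide for *Itgal* and *Itgb7* exons and junctions and spread apart for *Itgav* and *Itgb8*.

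Of 15 other integrin subunit genes, 6 had an RPKM above 1 in a library and only *Itgb5* (β5, a further partner of αV) was above 5. It had 4.38, 6.64 and 3.99 RPKM and, like *Itga6*, peaked in αA, at 0.60 (0.41 to 0.79) against N. *Itgad* (αD, a β2 partner of myeloid cells) had 1.29, 4.26 and 4.42, *Itgax* (CD11c) 0.94, 0.95 and 2.47, and *Itga3*, *Itga7* and *Itga2* stayed under 2 RPKM throughout.

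The machinery that switches integrins on was expressed in all 3 libraries. Of 41 genes for activation and actin linkage 32 were expressed, and 1 (3.12%), 0 and 6 (18.8%) of them differed 2-fold for αA against N, PαA against αA and PαA against N, against 4.25%, 4.63% and 10.3% of all expressed genes. With TMM factors 2, 0 and 4 did, against 3.55%, 4.39% and 7.34% of all expressed genes. Their median log2 ratios were -0.18, -0.13 and -0.18, near those of all expressed genes, and the last became 0.04 with TMM. *Tln1*, talin, which binds β tails to open the receptor, had 70.2, 41.9 and 34.9 RPKM and was 2-fold lower in PαA than in N, at -1.01 (-1.05 to -0.97). So were the exchange factor genes *Rasgrp1* and *Rapgef1* and the adhesion kinase *Ptk2b*, with log2 ratios of -1.04 to -1.39. *Rasgrp2*, also an exchange factor gene, was the only gene of this list that was 2-fold higher in PαA than in N, with 6.60, 8.33 and 13.4 RPKM. *Cd81*, a tetraspanin that associates with integrins, had 145, 57.0 and 40.8 RPKM and was the 1 gene of the list that differed 2-fold between αA and N, at -1.35 (-1.42 to -1.29). With TMM factors *Tln1* and *Rasgrp1* fell short of 2-fold, at -0.78 and -0.81.

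The libraries also held transcripts of ligands of these integrins, whose cell of origin was not tested. Among 20 ligand and partner genes 7 were expressed, of which 1 (14.3%), 2 (28.6%) and 0 differed 2-fold in the same 3 comparisons, against the same 4.25%, 4.63% and 10.3%, with median log2 ratios of -0.31, -0.33 and -0.71. With TMM factors 0, 1 and 1 did, against 3.55%, 4.39% and 7.34% of all expressed genes. *Spp1*, osteopontin, a ligand of αV and α4 integrins, had 10.3, 8.29 and 18.3 RPKM and was 2-fold higher in PαA than in αA, as *Itgb3* was. *Lamc1*, a laminin chain, had 8.24, 3.90 and 4.42 and was the gene 2-fold lower in αA than in N, though not with TMM, at -0.92. *Lrrc32* (GARP), which holds latent TGF-β on the surface of regulatory T cells where αVβ8 acts on it, had 9.11, 10.7 and 5.35 RPKM and was lower in PαA than in αA, at a log2 ratio of -1.003 (-1.14 to -0.87) whose interval spans 2-fold, and -0.94 with TMM. *Tgfb1* itself had 128, 101 and 78.5.

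Of 17 genes for TGF-β receptors, SMADs, their targets and RUNX factors, 14 were expressed, and 0, 1 (7.14%) and 2 (14.3%) differed 2-fold, where 4.25%, 4.63% and 10.3% of all expressed genes did, with median log2 ratios of -0.17, -0.21 and -0.29. The 2 lower in PαA than in N were *Pmepa1*, a target that damps SMAD signals, with 10.0, 7.17 and 2.95 RPKM and a ratio of -1.76 (-1.94 to -1.59), and *Skil*, a SMAD corepressor, with 18.9, 12.6 and 9.02 and a ratio of -1.07 (-1.15 to -0.98). *Pmepa1* was also the gene that was 2-fold lower in PαA than in αA. *Skil* stayed under 2-fold with TMM, at -0.84.

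Genes listed as markers of other cell types also differed between the libraries, and integrins are shared with those cells. Whether their reads came from such cells or from the TFR cells was not tested. Of 8 CD8 T and NK cell genes all 8 had reads in every library, with summed RPKM of 86.2 in N, 31.7 in αA and 33.3 in PαA. *Gzma*, granzyme A, was the most abundant of them in N and, like *Itgae*, high in N alone, with 61.8, 3.87 and 4.92 RPKM, and without *Gzma* the sums were 24.4, 27.8 and 28.3, lowest in N. *Cd8b1* had 9.07, 12.03 and 5.24 RPKM and did not follow *Itgae*, nor did *Klrb1c* (NK1.1) with 2.92, 4.23 and 5.90. Of 12 myeloid and dendritic genes the sum was 272, 174 and 242, most of it *Lyz2* with 214, 134 and 184, and *S100a9* had 235, 0 and 153 reads, the only gene of that list at 0, *S100a8* 185, 11 and 147 reads, and the macrophage marker *Adgre1* 2.30, 5.32 and 4.93 RPKM. A count of 0 allows up to 3 reads. Of 8 endothelial and stromal genes the sum was 27.6, 10.2 and 16.2, led by *Pecam1*, with *Tek* at 0 in N and PαA and *Pdpn* at 0 in αA, and *Col1a1* had 907, 36 and 188 reads. *Gzma*, *S100a9* and *Col1a1* were thus highest in N, as *Itgae* and *Itga4* were, although *S100a9* was nearly as high in PαA, with 15.1 and 11.5 RPKM. Other genes of these lists went another way: *Cd8a* was lowest in N, with 18, 179 and 231 reads, and the macrophage genes *Csf1r*, with 6.25, 10.6 and 6.62 RPKM, and *Cd68*, with 16.4, 19.5 and 18.0, were highest in αA. Their part in the integrin values was not tested.

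Of 8 B and plasma cell genes all had reads, with sums of 61.0, 72.4 and 115, most of it *Jchain* with 44.3, 58.4 and 94.8 RPKM, and *Sdc1*, the plasma cell marker CD138, had 0.74, 1.03 and 5.97. Platelets carry αIIbβ3, whose β chain is encoded by *Itgb3*. The sum of 9 platelet and megakaryocyte genes was 1.43, 2.75 and 5.77 RPKM, highest in PαA as *Itgb3* was, with *Ppbp* at 0.53, 0.51 and 2.90 and *Pf4* at 0.67, 0.58 and 1.74. *Itga2b*, the α chain of the platelet integrin, had 0.15, 0 and 0.13 RPKM, and *Gp6* and *Treml1* were at 0 in N and αA. *Gp9*, with 0, 1.04 and 0.45 RPKM, *Gp1ba*, with 0.09, 0.15 and 0, and *Gp5*, with 0, 0.18 and 0, were instead highest in αA, where *Itgb3* was lowest. The part of platelet transcripts in the *Itgb3* values was not tested.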

How the data were processed

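Poly(A) RNA-seq of 3 sorted TFR samples, 1 per genotype and without replicates, was read from the gene tables. After adapter trimming, the authors mapped reads to GRCm38 and counted exon, junction and intron reads with CLC Genomics Workbench at default settings. Strand was not marked. The deposited tables give raw counts (total and unique exon reads, junction and intron reads), RPKM and TPM. RPKM divides exon reads by exon length and by 29726219, 27239921 and 25465829 reads. Genes with an exon length of 0 (3715) were not used. Ratios of RPKM were taken without pseudocount. Their 95% intervals are exact Clopper-Pearson intervals of the read counts and, like a limit of 3 reads for a count of 0, cover counting error only. A gene counted as expressed when any library exceeded an RPKM of 5, and a ratio above 2 was called. No p-values were computed. Alternatives were TPM, edgeR 4.0.16 TMM factors (R 4.3.3), median-of-ratios size factors, RPKM above 1 or 10, a fold of 1.5, a pseudocount of 1, unique reads and thinned reads. The computation of calls, ratios and intervals was checked on counts simulated with counting error only and known differences. Those counts held no PCR copies and no spread between mice, so the check says nothing of either. Named genes were the 10 members, other subunits above an RPKM of 1, from each list the genes past 2-fold or else the 3 most abundant, and the 5 nearest to the member with the largest ratio; genes beside these were chosen after their values were seen. A further gene first taken into a marker list was dropped and is not reported here. The members and lists were chosen with earlier results of these data known. Python 3.11.15, pandas 2.3.3, numpy 2.4.6, scipy 1.17.1 and matplotlib 3.10.9 were used.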

Additional observations from a re-analysis of the deposited data

How the results depend on the processing

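The number of genes past the threshold moved with the filter, and for PαA against N also with scaling, rather than with depth. For αA against N, 298 genes became 978 with RPKM above 1, 146 with RPKM above 10, 988 with a fold above 1.5 and 194 with 1 added to both RPKM. For PαA against αA, 325 became 1016, 171, 1033 and 215 in the same order. For PαA against N, 725 became 1715, 392 and 1966, and 491 with 1 added. Scaling took the same 725 to 1017 by TPM, 509 with TMM factors and 510 with size factors, whereas thinning gave 721. Of the integrin genes, 5 passed a fold of 1.5 between PαA and αA in place of 3, adding *Itgal* and *Itgb8*. *Itgae* (against N), *Itgav* and *Itga6* (PαA against αA) and *Itgae*, *Itgav* and *Itgb8* (PαA against N) passed under every alternative of scaling, filter, pseudocount, unique reads and thinning. In junction reads *Itgav* was under 2-fold in both comparisons, at -0.84 and -0.79, and so were *Itga6*, at -0.91, and *Itgb3*, at 0.93, in PαA against αA, so that none of the 3 genes called there was 2-fold apart in junction reads. *Itga4* was lost with TMM and size factors in both comparisons with N, and with 1 added to both RPKM in PαA against N. *Itgb3* was lost by TPM and with 1 added, and *Itga6* in αA against N with 1 added, at 0.96. Sign depended on scaling for *Itgb7*, *Itgal* and *Itgav* in αA against N, for *Itga4* in PαA against αA (-0.15 by TPM) and for *Itga6* in PαA against N. Thinning all libraries to the smallest left all 30 integrin ratios and all 24 dimer ratios within their counting intervals. With unique reads 7 of 24 dimer ratios moved beyond their intervals, those of α4β7 and α4β1 in every library and that of αLβ2 in N. No paired analysis was possible because each genotype has 1 library. The limit is replication: the intervals cover counting error and say nothing of the spread between mice, and a gene near the 2-fold line, such as *Itga4* or *Itgb3*, is on either side of it by choice of scaling.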

Other observations

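Adhesion and homing receptors that work beside integrins were read from a list of 20 genes. Of these 18 were expressed, and 2 (11.1%), 7 (38.9%) and 9 (50%) of them were 2-fold apart for αA against N, PαA against αA and PαA against N, against 4.25%, 4.63% and 10.3% of all expressed genes. *S1pr1*, the receptor for egress from lymphoid tissue, had 55.5, 88.0 and 189 RPKM in N, αA and PαA, and *Klf2*, the transcription factor known to drive it, 54.3, 56.0 and 178. *Gpr15*, a homing receptor for the large intestine, had 14.1, 10.0 and 50.1 RPKM, a log2 ratio of 2.32 (2.15 to 2.49) between PαA and αA. *Fut7*, which builds selectin ligands, had 2.97, 5.72 and 21.4, and *Cd226*, a partner of LFA-1, 16.5, 24.3 and 39.0. The genes lower in PαA than in N were *Ccr9*, the receptor for homing to the small intestine, with 22.3, 7.95 and 3.89, *Cd6* with 284, 131 and 102, and *Alcam*, the ligand of CD6, with 6.09, 4.02 and 1.95. *Ccr10* counted among the higher genes but only 5.9% of its exon reads were unique in its highest library, so its level is uncertain. With TMM factors 2 genes were higher and 1 lower for αA against N (0 and 2 by RPKM). For PαA against αA 6 were higher and 0 lower (5 and 2 by RPKM), *Ccr9* and *Alcam* being lost at -0.96 and -0.97. For PαA against N 6 were higher and 3 lower, as by RPKM. Of all expressed genes 3.55%, 4.39% and 7.34% differed 2-fold with TMM factors in these comparisons.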
